A study of Mus musculus with 18 samples.

Results

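The Het and WT progenitor lines were compared with each other in ethanol, the solvent control, before any deletion of Ddx41 was induced. The comparison takes the 3 Het and the 3 WT ethanol libraries, 6 of the 18 RNA sequencing libraries of the series, chosen by their labels and not by any measured value. Both lines are mouse bone marrow cells that were depleted of lineage-marked cells and immortalized with a retrovirus carrying MLL-AF9, and both were grown with interleukin-3, stem cell factor and human interleukin-6. The Het line has a floxed and a normal Ddx41 allele (+/flox), and the WT line has no floxed allele (+/+). Per the labels, a tamoxifen-activated Cre recombinase is expressed from the Rosa locus, and the libraries used here were made after 48 h in ethanol, which does not activate the Cre by design. Where values under 4-hydroxytamoxifen (4OHT, 1 µM, 48 h) are given, the Het line is labelled +/- and the WT line +/+. The FF line, labelled flox/flox in ethanol, is given as values only.

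MLL-AF9 is a leukemia fusion protein that keeps myeloid progenitors dividing, largely by holding homeobox genes of the HOXA cluster active. A line made this way halts near the granulocyte-monocyte progenitor stage, and lines from different transductions can halt at different points. Myeloid maturation is read from granule genes, which are switched on in sequence from azurophil to late granules, and from monocyte and dendritic cell genes. Eya1, a transcriptional coactivator and phosphatase that works with homeoproteins of the sine oculis family, and Vcam1, an adhesion molecule that binds the integrin VLA-4, are taken as markers of the lines.

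Library totals in the comparison ran from 26557184 to 49277884 counts, so that 1 count was worth 0.0194 to 0.0396 CPM (counts divided by the TMM-scaled library size). Correlations of log2 CPM were 0.984 to 0.995 within a line and 0.901 to 0.919 between the lines. The labels do not say that libraries A, B and C are separate cultures, or how many clones stand behind a line. Each p-value thus rests on the spread over 3 libraries of a line, which may be technical, and an effect of genotype cannot be told apart from one of the line. The Het columns form a block of their own in the deposited table after a second column of gene symbols, and whether they were sequenced or counted apart is not given in the sources used here, so such a difference cannot be told apart from line either. In the library WT_EtOH C, Tgm2, which encodes a transglutaminase induced by retinoids, was at 25.5 CPM, while WT_EtOH A and B had 219 and 229 CPM. The 4OHT libraries WT_4OHT A and B had 17.97 and 17.4 CPM and the Het 4OHT libraries 14.3 to 45.1 CPM. WT_4OHT C, in contrast, had 481 CPM. At this gene WT_EtOH C thus goes against its ethanol label, and WT_4OHT C against its 4OHT label. Counts were therefore also taken without WT_EtOH C. Earlier work on these data placed 2 libraries, labelled FF_EtOH C and WT_4OHT C, with the other line, and their values are given under those labels.

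Ddx41, the floxed gene, encodes a DEAD-box RNA helicase and lies on chromosome 13 (GRCm38, 55530410 to 55536658, minus strand). It was at 79.9, 82.3 and 89.9 CPM in WT libraries A to C and at 71.5, 68.0 and 79.2 CPM in Het libraries A to C. Every Het library was below every WT library, but the lines also did not overlap at 45.3% of all tested genes. The log2 difference of Ddx41, -0.16 ± 0.11 (SE), did not pass the threshold (edgeR adjusted p = 0.335). Y-linked transcripts were present in both lines, with the translation factor Eif2s3y at 66.7 to 101 CPM in WT and 71.2 to 87.8 CPM in Het. Of the 4 tested genes in the list of Y-linked and X-inactivation genes, 0 passed the threshold in edgeR, DESeq2 or voom, and 1 had an unadjusted p under 0.05 in edgeR. Without WT_EtOH C the Y-linked helicase gene Ddx3y was called lower in Het (log2 -0.43, edgeR adjusted p = 0.00551).

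Eya1 (chromosome 1, 14168954 to 14310235, minus strand) had 0 counts in all 3 WT libraries. In the Het libraries it was at 82.1, 93.1 and 99.5 CPM, a total of 10275 counts. With the WT group set to a floor of 3 counts over the group, Eya1 was at least 2627-fold higher in Het. Vcam1 (chromosome 3, 116109949 to 116129688, minus strand) went the opposite way. It was at 356, 348 and 405 CPM in WT and at 3.20, 1.92 and 2.84 CPM in Het (log2 -7.06 ± 0.20, edgeR adjusted p = 5.46e-08). The 2 markers parted all 6 libraries by line, in opposite directions, but they were chosen with earlier results of these data known. Libraries of the lines also did not overlap at 45.3% of all tested genes. In the FF line, FF_EtOH A and B had both transcripts, with Eya1 at 65.6 and 55.2 CPM and Vcam1 at 142 and 95.04 CPM, while FF_EtOH C had Eya1 at 0 and Vcam1 at 374 CPM.

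**Figure D1:**
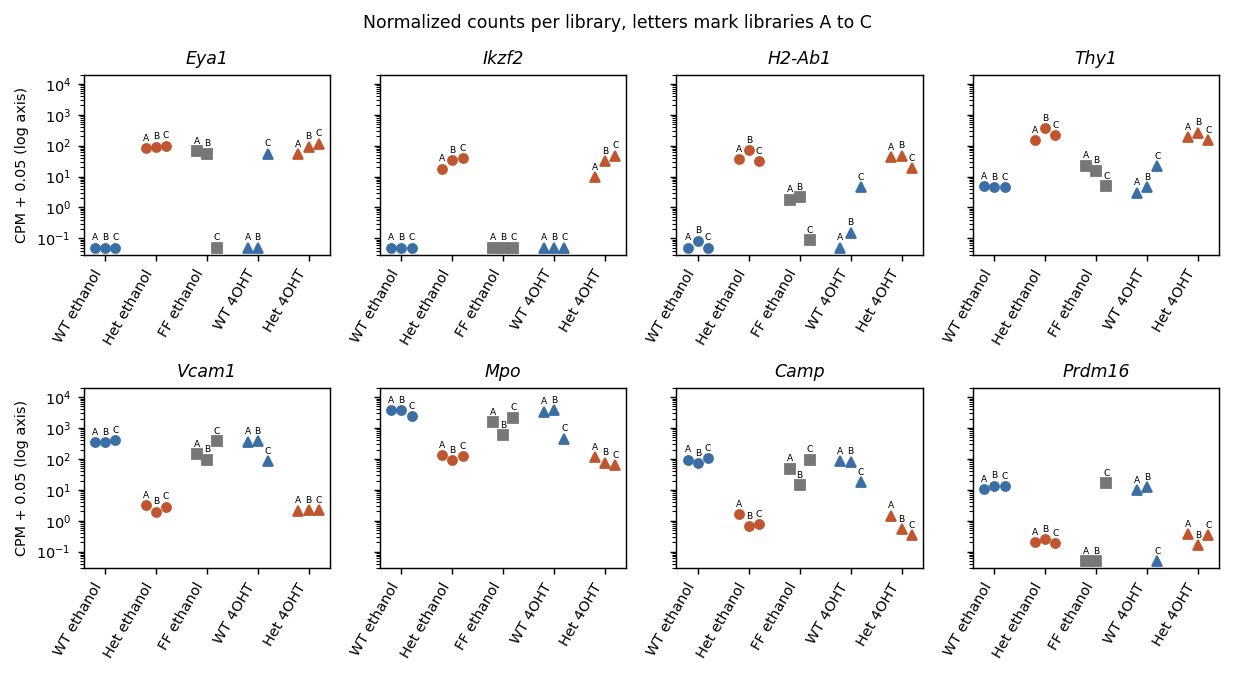
CPM plus 0.05 on a log axis for 8 genes, with 1 point per library (letters A to C) in the WT and Het lines in ethanol (circles), the FF line in ethanol (squares) and the WT and Het lines under 4OHT (triangles). Eya1, Ikzf2, H2-Ab1 and Thy1 lie higher in all Het ethanol libraries, and Vcam1, Mpo, Camp and Prdm16 lie lower, than in all WT ethanol libraries.

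Across 12320 tested genes, 3460 passed an adjusted p of 0.05 (28.1%), 2082 of them higher in Het (16.9%) and 1378 lower (11.2%). Of these, 1312 were higher and 563 lower by at least 2-fold. The median log2 difference of all tested genes was 0.01. Libraries of the lines did not overlap at 5575 tested genes (45.3%). Counts within a gene list are read below against these shares. Without WT_EtOH C the fit called 4223 genes.

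The transcripts with the largest differences were nearly on in one line and off in the other. Besides Eya1, the largest rises in Het were Ikzf2, Pea15a, Adm, Mir682, Lypd6, Rpl14-ps1, Taf9b, Ldoc1l, H2-Ab1, Psma8 and Aldoart1. Ikzf2, which encodes the zinc finger factor Helios, had 0 counts in WT and was at 17.96, 33.7 and 39.7 CPM in Het, at least 824-fold higher. It also had 0 counts in the 3 FF ethanol libraries, unlike Pea15a, an adaptor that binds ERK, which was at 27.0 to 30.1 CPM in Het, 0 in WT and 22.3 and 22.01 CPM in FF_EtOH A and B. Adm, encoding the peptide adrenomedullin, had 0 counts in WT but spread widely in Het, with 5.11, 58.4 and 9.32 CPM. Its call (edgeR adjusted p = 0.0429) was lost without WT_EtOH A or without WT_EtOH B.

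In the opposite direction the largest falls were Sdk1, Vcam1, Ugt8a, Fam115a, Cftr, Camp, Bcl11a, Skida1, Ptprt, Olfm4, Prdm16 and St8sia5. Sdk1, a cell adhesion molecule of the immunoglobulin family, was at 11.6, 10.7 and 13.3 CPM in WT and had 3 counts over the Het libraries, a WT to Het ratio of 455 (95% counting interval 155 to 2212). The zinc finger repressor Bcl11a was at 14.4, 15.1 and 7.84 CPM in WT and 0.14, 0.21 and 0.10 CPM in Het. Cftr, the chloride channel gene, was lowest among the WT libraries in WT_EtOH C, with 20.7, 15.6 and 7.57 CPM in A, B and C, and stayed below 0.20 CPM in each Het library.

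**Figure D2:**
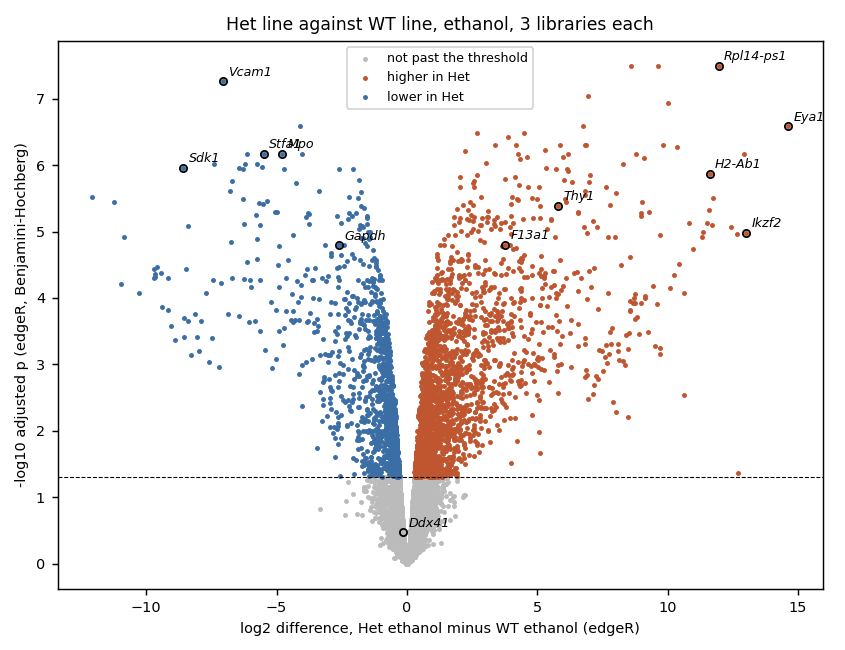
The edgeR log2 difference (Het minus WT, ethanol) on the horizontal axis and -log10 of the adjusted p on the vertical axis for the 12320 tested genes, with genes past 0.05 (dashed line) coloured by direction. Eya1 and Vcam1 sit at the far right and near the top left, and Ddx41 lies under the line.

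Of the myeloid state lists, late granule genes had the median farthest from 0. Of 22 tested late granule and neutrophil genes, 17 were lower in Het (77.3%) and 1 was higher (4.55%). The shares over all tested genes were 11.2% and 16.9%. The list had a median log2 difference of -2.21, against 0.01 over all tested genes. The summed level of its members was 1974 to 2340 CPM in the WT libraries and 331 to 550 CPM in the Het libraries. Without WT_EtOH C 16 members were lower and 2 higher. In bulk RNA, fewer cells of a type and less RNA per cell cannot be told apart, here and in the lists that follow. Camp, the cathelicidin antimicrobial peptide of late granules, was at 95.4, 72.8 and 108 CPM in WT and 1.57, 0.63 and 0.71 CPM in Het (log2 -6.43 ± 0.32, edgeR adjusted p = 1.10e-06). Olfm4, a glycoprotein of a neutrophil subset, was at 125, 108 and 160 CPM in WT and 1.495, 2.58 and 1.01 CPM in Het. No library of one line overlapped the other line at these 2 genes, as was so for 45.3% of all tested genes. S100a8 and S100a9, the subunits of calprotectin, fell less, with log2 differences of -2.55 and -2.94. Ltb4r1, the high-affinity leukotriene B4 receptor, fell from 37.5 to 49.1 CPM in WT to 9.59 to 13.9 CPM in Het. Padi4, the deiminase that citrullinates histones in neutrophils, was the member that was higher, at 36.0 to 45.8 CPM in WT and 71.6 to 85.1 CPM in Het.

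Azurophil granule genes, made at the promyelocyte stage, did not move as one. Of 17 tested members 8 were lower (47.1%) and 4 higher (23.5%) in Het (median log2 -0.32), beside 11.2% and 16.9% over all tested genes. Mpo, which encodes myeloperoxidase, was at 3781, 3801 and 2451 CPM in WT and at 137, 92.3 and 123 CPM in Het (log2 -4.78 ± 0.22, edgeR adjusted p = 6.77e-07). Prtn3, proteinase 3, fell by 0.98 on the log2 scale from a range of 2861 to 3417 CPM, and Ms4a3, a granulocyte-monocyte progenitor gene, fell by 0.82 from 1054 to 1154 CPM. Ctsg, cathepsin G, lay higher in Het, at 1249 to 1519 CPM in WT and 1599 to 2011 CPM in Het, but its call (log2 0.42, edgeR adjusted p = 0.0424) was lost without WT_EtOH A, WT_EtOH B, Het_EtOH A or Het_EtOH C.

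The promoters of Mpo and of the late granule genes named by the rule of choice are shown because these genes fell together. RefSeq promoters (GRCm38.p6) were found for all 7 genes, and the 250 bases before the start are given for 5 of them, 5′ to 3′ on the strand of the gene. The RefSeq starts differ from the GENCODE M21 gene bounds used for coordinates elsewhere. The Olfm4 window begins 15971 bases inside the annotated gene, and 203 bases of the Mpo window, 161 of the Camp window and 197 of the Stfa1 window lie inside theirs. Capitals mark every match, on either strand, to GGAAGT (core of ETS factors such as PU.1), TGTGGT (RUNX core) or GGGNNTTCC (NF-kB core), and no 2 matches overlap.
Mpo: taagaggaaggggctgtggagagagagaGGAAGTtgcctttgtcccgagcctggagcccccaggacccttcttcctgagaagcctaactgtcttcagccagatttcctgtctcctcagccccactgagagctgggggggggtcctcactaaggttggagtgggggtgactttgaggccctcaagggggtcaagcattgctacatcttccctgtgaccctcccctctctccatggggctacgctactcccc
Camp: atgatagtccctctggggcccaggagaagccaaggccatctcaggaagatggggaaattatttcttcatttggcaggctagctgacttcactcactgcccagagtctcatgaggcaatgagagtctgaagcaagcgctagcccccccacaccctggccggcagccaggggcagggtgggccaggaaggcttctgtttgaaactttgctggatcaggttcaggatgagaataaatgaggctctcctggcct
Olfm4: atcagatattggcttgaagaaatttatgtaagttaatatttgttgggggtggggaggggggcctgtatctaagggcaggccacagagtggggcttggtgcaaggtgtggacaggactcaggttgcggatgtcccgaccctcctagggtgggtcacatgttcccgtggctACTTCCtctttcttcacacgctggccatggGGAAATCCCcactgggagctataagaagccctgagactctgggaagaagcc
Stfa1: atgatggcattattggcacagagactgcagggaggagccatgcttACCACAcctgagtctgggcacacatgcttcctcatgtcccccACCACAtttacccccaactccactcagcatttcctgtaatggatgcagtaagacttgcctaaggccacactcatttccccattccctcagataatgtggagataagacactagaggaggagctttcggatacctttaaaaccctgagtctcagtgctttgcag
Stfa2l1: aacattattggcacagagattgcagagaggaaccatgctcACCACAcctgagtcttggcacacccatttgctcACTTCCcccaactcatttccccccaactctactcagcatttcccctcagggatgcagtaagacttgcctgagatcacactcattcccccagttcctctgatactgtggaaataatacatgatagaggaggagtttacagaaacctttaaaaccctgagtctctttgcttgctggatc
They lie at chr11:87793534-87793783 (plus strand), chr9:109849457-109849706 (minus), chr14:80000052-80000301 (plus), chr16:36276898-36277147 (plus) and chr16:36156561-36156810 (plus), in that order. Of the 6 late granule promoters, which also include Itgb2l and Ltb4r1, 3 held the ETS core, 3 the RUNX core and 1 the NF-kB core. Among 32851 promoters of the same length 19.7% held the ETS core, 14.05% the RUNX core and 4.98% the NF-kB core. The C/EBP palindrome TTGCGCAA was in none of the 6 and in 0.164% of all. A match is a description of letters and not a binding site, and no match says only that these letters are not in this window. The promoters of the stefin genes Stfa1 and Stfa2l1 share a run of 21 bases, the longest shared by any pair of the 7. Both hold the RUNX core, so these 2 of the 3 promoters with that core are not fully separate.

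Monocyte and macrophage genes went both ways, with 4 of 24 tested members higher and 4 lower in Het (16.7% each, median log2 -0.33). Over all tested genes 16.9% were higher and 11.2% lower, so these counts are near the background. F13a1, the coagulation factor XIII subunit of monocytes, was at 67.1, 76.5 and 60.3 CPM in WT and 726, 1333 and 607 CPM in Het (log2 3.76 ± 0.28, edgeR adjusted p = 1.57e-05). Ccr2, the chemokine receptor of inflammatory monocytes, was at 145 to 249 CPM in WT and 305 to 657 CPM in Het, and its call was lost without any single WT library. Fcgr1, the high-affinity IgG receptor, fell from 12.5 to 13.9 CPM to 1.75 to 2.50 CPM, and Klf4, a factor that promotes monocyte differentiation, fell from 7.12 to 8.54 CPM to 2.19 to 2.60 CPM. The calls of Gpnmb (log2 3.81) and Trem2 (1.62) were lost without WT_EtOH B, the first also without WT_EtOH A and the second also without Het_EtOH B. The summed level of the list was 1307 to 1484 CPM in WT and 1741 to 3390 CPM in Het, with 15 of 24 tested members below 0 on the log2 scale. Without F13a1 the sums were 1239 to 1424 CPM in WT and 1259, 2058 and 1134 CPM in Het libraries A to C, so the lines overlapped.

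Dendritic cell and MHC class II genes were higher in Het at 7 of 14 tested members (50%) and lower at 1 (7.14%). The shares over all tested genes were 16.9% and 11.2%. The list had a median log2 difference of 1.14. H2-Ab1, the beta chain of the class II molecule I-A, had 1 count in the WT libraries together and was at 36.6, 69.9 and 31.9 CPM in Het. Its partner chain H2-Aa had 3 counts in WT and was at 2.27, 4.36 and 2.84 CPM in Het. At neither chain did a WT library overlap a Het library, as at 45.3% of all tested genes. Cd74, the invariant chain, was at 0.32 to 1.60 CPM in WT and 2.03 to 6.61 CPM in Het, and its call was lost without WT_EtOH B. Ciita, the class II transactivator, had 1 count in WT and 6 in Het and did not enter the test. Itgax (CD11c) rose from 0.45 to 0.59 CPM to 2.43 to 5.86 CPM. Xcr1, the receptor of cross-presenting dendritic cells, had 0 counts in Het and 0.45 to 1.11 CPM in WT, and Siglech, Cd209a and Cd83 had 0 counts in all 6 libraries.

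In the lymphoid list 1 of 5 tested genes was higher and 2 lower, and 11 of its 25 genes, Cd3e, Rag1, Pax5 and Cd4 among them, had 0 counts in all 6 libraries. The higher gene was Thy1 (CD90), at 4.91, 4.48 and 4.57 CPM in WT and 150, 375 and 217 CPM in Het (log2 5.78 ± 0.34, edgeR adjusted p = 4.05e-06). It accounts for most of the rise of the summed list from 22.8 to 25.7 CPM in WT to 164 to 391 CPM in Het. The stromal and endothelial list had 4 of 6 tested genes higher and 1 lower, and its sum went from 100 to 105 CPM in WT to 632 to 912 CPM in Het. Thy1 is a member of this list too, and without Thy1 and Pecam1 the sum was 29.0 to 35.9 CPM in WT and 49.6 to 126 CPM in Het. The calls of Acta2, a higher member, and Lepr, the lower one, were each lost without WT_EtOH A, WT_EtOH B, Het_EtOH A or Het_EtOH C. Pecam1 (CD31), which myeloid progenitors also carry, was at 64.3 to 67.0 CPM in WT and 375 to 432 CPM in Het, and Pdgfrb, the PDGF receptor beta, had 3 counts in WT and 13.6 to 18.7 CPM in Het. The stromal and endothelial genes Pdgfra, Dcn, Lum and Emcn had 0 counts in all 6 libraries. Beside the counts in both lists, 16.9% of all tested genes were higher and 11.2% lower.

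Erythroid genes were lower at 1 of 4 tested members, with the adult globins Hba-a1, Hba-a2, Hbb-bs and Hbb-bt at 0 counts. Tfrc, the transferrin receptor gene of dividing cells, made up nearly all of that list's sum, at 430 to 776 CPM in WT and 600 to 788 CPM in Het, and did not pass the threshold. Megakaryocyte genes were lower at 3 of 8, and Rap1b, a small GTPase, was at 198 to 312 CPM in WT and 239 to 257 CPM in Het and did not pass the threshold. Among mast cell, basophil and eosinophil genes 2 of 5 were higher and 2 lower. Over all tested genes 16.9% were higher and 11.2% lower. Mcpt8, the basophil protease, rose from 5.55 to 6.82 CPM to 16.2 to 21.9 CPM, and Hdc, histidine decarboxylase, fell from 19.4 to 22.7 CPM to 5.05 to 10.5 CPM. The pan-leukocyte antigen gene Ptprc (CD45), at 288 to 411 CPM in WT and 335 to 433 CPM in Het, did not pass the threshold.

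Of 27 tested stem cell and MLL-AF9 self-renewal genes, 9 were lower in Het (33.3%) and 6 higher (22.2%, median log2 -0.25). The shares over all tested genes were 11.2% and 16.9%. Among the HOXA genes, which MLL fusions keep active, Hoxa9 fell by 1.08, Hoxa5 by 0.96, Hoxa7 by 0.78, Hoxa10 by 0.71 and Hoxa11 by 0.41 on the log2 scale. Their partner Meis1 was at 122 to 127 CPM in WT and 91.9 to 112 CPM in Het and did not pass the threshold. Prdm16, a chromatin regulator of stem cells, was at 10.7, 13.7 and 13.1 CPM in WT and 0.16, 0.21 and 0.14 CPM in Het (log2 -6.15 ± 0.28, edgeR adjusted p = 6.77e-07). Skida1 and Lin28b, an RNA-binding protein of fetal progenitors, fell by 6.28 and 4.40. Besides Eya1, the members higher in Het were Six4 (log2 2.01), the HOX cofactor Pbx3 (1.83), the fusion partner Mllt3 (1.34), Mef2c (0.94) and Myc (0.65). The fusion contains part of the protein that Mllt3 encodes, and the species of the retroviral insert is not given in the sources used here, so reads of the fusion may be counted in Mllt3.

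Among 46 tested myeloid transcription factors, 7 were higher (15.2%) and 8 lower (17.4%) in Het, with a median log2 difference of 0.01. The shares over all tested genes were 16.9% and 11.2%, so the list as a whole stood close to them. Cebpa, a factor needed for the granulocyte-monocyte progenitor, was at 86.5, 95.5 and 104 CPM in WT and 255, 194 and 192 CPM in Het (log2 1.21 ± 0.14, edgeR adjusted p = 1.69e-04). Cebpe, which drives late granule genes, went the opposite way, at 87.1, 83.4 and 118 CPM in WT and 34.6, 37.9 and 28.0 CPM in Het (log2 -1.48 ± 0.17, edgeR adjusted p = 1.77e-04). Neither gene overlapped between the lines, as was so for 45.3% of all tested genes. Spi1, which encodes the ETS factor PU.1, fell by 0.97, Cebpd by 1.12 and Erg by 2.53 on the log2 scale. Rxra and Rara, retinoid receptors, rose by 1.62 and 1.03.

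**Figure D3:**
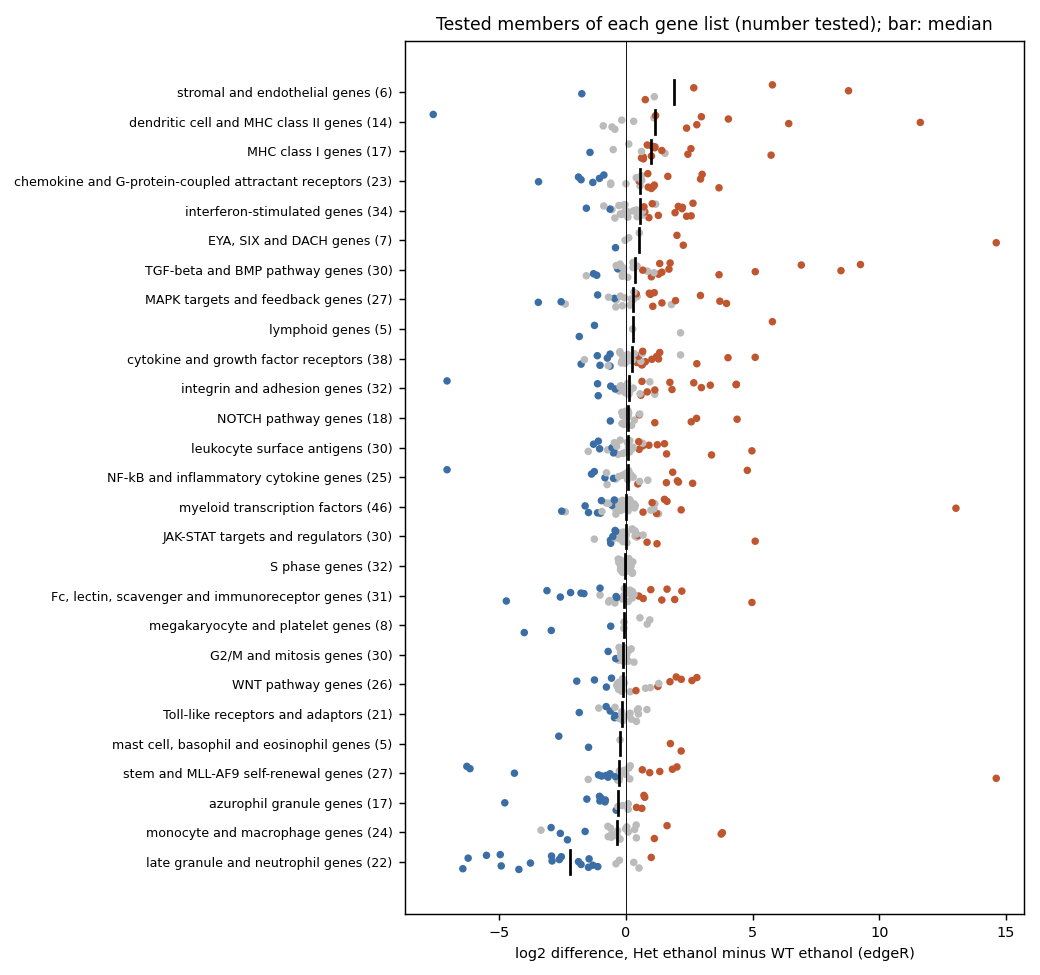
Log2 difference (Het minus WT, ethanol, edgeR) of each tested member of the gene lists with at least 5 tested members, the number tested in parentheses, coloured by direction where past the threshold and grey elsewhere. Bars mark list medians, which run from -2.21 for late granule and neutrophil genes to 1.90 for the 6 stromal and endothelial genes.

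On the cell surface, 11 of 32 tested integrin and adhesion genes were higher (34.4%) and 5 lower (15.6%) in Het. The shares over all tested genes were 16.9% and 11.2%. Vcam1 had the largest difference of the integrin and adhesion list. Its ligand chain Itga4, the alpha subunit of VLA-4, was at 134 to 236 CPM in WT and 147 to 184 CPM in Het and did not pass the threshold, but without WT_EtOH C, the lowest WT library, it was called lower (log2 -0.47, edgeR adjusted p = 0.0137). Itgb7, the integrin beta chain that pairs with the same alpha subunit, was at 14.5, 12.04 and 10.2 CPM in WT and 83.3, 156 and 117 CPM in Het (log2 3.33 ± 0.23, edgeR adjusted p = 6.80e-06). The junctional molecules Jam2 and Jam3 were under 0.21 CPM in WT and at 1.52 to 2.31 and 2.98 to 4.32 CPM in Het. Itga6 rose from 105 to 112 CPM to 219 to 256 CPM. Leukocyte antigens were higher at 9 of 30 (30%) and lower at 6 (20%). Cd93, a progenitor and monocyte glycoprotein, rose by 0.91, Emb, embigin, by 1.24, and Anpep (CD13) by 3.38, while Prom1 (CD133) and Eng fell by 1.09 and 1.28 on the log2 scale.

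Cytokine and growth factor receptors were higher at 13 of 38 tested members (34.2%) and lower at 6 (15.8%). The shares over all tested genes were 16.9% and 11.2%. Csf3r, the receptor for granulocyte colony-stimulating factor, was at 89.2, 85.1 and 95.8 CPM in WT and 27.1, 25.04 and 24.6 CPM in Het (log2 -1.77 ± 0.11, edgeR adjusted p = 4.06e-06). Il2ra, the interleukin-2 receptor alpha chain CD25, was at 0.36, 0.42 and 0.33 CPM in WT and 12.6, 15.8 and 8.27 CPM in Het (log2 5.10 ± 0.33, edgeR adjusted p = 4.16e-06). Receptors for the 3 cytokines in the medium moved unevenly. Il3ra, the interleukin-3 receptor alpha chain, rose by 1.21 and the shared beta chain Csf2rb by 0.63, whereas Il6ra, for interleukin-6, fell by 1.13 and Kit, for stem cell factor, by 0.62 on the log2 scale. Flt3 was at 1.82, 0.73 and 0.15 CPM in WT and 4.97 to 6.55 CPM in Het, and its call was lost without WT_EtOH B.

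Of 23 tested chemokine and attractant receptors 10 were higher (43.5%) and 6 lower (26.1%, median log2 0.56). The shares over all tested genes were 16.9% and 11.2%. Gpr183, an oxysterol receptor, rose from 1.87 to 2.54 CPM to 12.3 to 18.8 CPM, and S1pr3, a sphingosine-1-phosphate receptor, from 0.95 to 1.63 CPM to 7.63 to 11.6 CPM. Lower members included the neutrophil receptors Ltb4r1 (log2 -1.87) and Fpr2 (-1.77). Fpr2 was low in both lines, at 0.73 to 1.04 CPM in WT and 0.17 to 0.27 CPM in Het. Fc, lectin, scavenger and paired immunoreceptor genes were higher at 8 of 31 (25.8%) and lower at 9 (29.0%). In the C-type lectin cluster of chromosome 6, Clec4a2 was at 54.0, 46.2 and 43.4 CPM in WT and 1.28, 2.49 and 1.55 CPM in Het (log2 -4.72 ± 0.24, edgeR adjusted p = 1.16e-06). Clec4e, the receptor Mincle, was at 20.3, 19.3 and 14.1 CPM in WT and 60.9, 75.5 and 60.3 CPM in Het, and Clec4d rose by 1.42, so these neighbours differed in opposite directions. Toll-like receptors and adaptors were higher at 0 and lower at 5 of 21 (23.8%). They were Tlr1, Tlr2, Unc93b1, Irak4 and Myd88, of which Myd88 (log2 -0.43) was not called without WT_EtOH A, WT_EtOH C or Het_EtOH B.

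Among the signalling lists, EYA, sine oculis homeobox and DACH genes had 3 of 7 tested members higher, Eya1, Six4 and Dach2, and 1 lower, Dach1. Six4, a homeoprotein that binds EYA proteins, was at 12.96, 11.7 and 7.90 CPM in WT and 46.9, 43.3 and 36.4 CPM in Het (log2 2.01 ± 0.19, edgeR adjusted p = 4.52e-05). Among targets and feedback genes of the MAPK pathway 10 of 27 were higher (37.0%) and 4 lower (14.8%). The shares over all tested genes were 16.9% and 11.2%. Etv4, an ETS factor induced by ERK signalling, rose from 0.42 to 0.50 CPM to 6.08 to 8.69 CPM, and Fosl2, an AP-1 subunit, from 21.8 to 27.8 CPM to 71.6 to 120 CPM. Fos, another AP-1 subunit and an early target, was at 9.35, 11.5 and 4.45 CPM in WT and 0.49, 0.69 and 1.08 CPM in Het (log2 -3.46 ± 0.42, edgeR adjusted p = 2.07e-04). Fosl2 and Fos thus differed in opposite directions. Fosl1, also an AP-1 gene, rose by 3.71 on the log2 scale, a call lost without WT_EtOH B.

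TGF-beta and BMP genes were higher at 12 of 30 tested members (40%) and lower at 3 (10%, median log2 0.37). The shares over all tested genes were 16.9% and 11.2%. The ligand Tgfb2 was at 0.12, 0.31 and 0 CPM in WT and 22.8, 19.7 and 7.09 CPM in Het (log2 6.92 ± 0.71, edgeR adjusted p = 1.03e-04). Under 4OHT Tgfb2 was at 0.48, 0.89 and 0.13 CPM in Het and 0, 0.026 and 6.86 CPM in WT libraries A to C, and its log2 difference of -2.15 had the opposite sign and was not called (4.77 and not called without WT_4OHT C). Tgfb3 had 0 counts in WT and 1.11 to 3.31 CPM in Het, at least 66.2-fold higher. The receptors Bmpr1a, from 1.72 to 5.39 CPM to 30.3 to 60.4 CPM, and Tgfbr2, from 15.3 to 17.7 CPM to 37.7 to 41.5 CPM, were also higher. Bambi, a decoy receptor that dampens the pathway, fell from 34.3 to 35.3 CPM to 13.8 to 16.2 CPM.

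NOTCH pathway genes were higher at 5 of 18 (27.8%) and lower at 1 (5.56%), beside 16.9% and 11.2% over all tested genes. The coactivator Maml3 rose from 2.85 to 4.12 CPM to 17.3 to 25.04 CPM, and the ligand Jag2 from 0.76 to 1.11 CPM to 3.51 to 7.09 CPM. WNT pathway genes were higher at 7 of 26 (26.9%) and lower at 4 (15.4%). Of the paired ubiquitin ligases that remove WNT receptors, Znrf3 rose by 1.99 and Rnf43 fell by 1.94 on the log2 scale. JAK-STAT targets and regulators were higher at 4 of 30 (13.3%) and lower at 5 (16.7%), beside 16.9% and 11.2% over all tested genes. Cish, a STAT5 target, was at 41.2 to 53.3 CPM in WT and 69.0 to 93.5 CPM in Het. Stat3 was lower by 0.41 on the log2 scale. NF-kB and inflammatory genes were higher at 7 of 25 (28%) and lower at 5 (20%). The chemokine Ccl9 was at 85.7, 87.3 and 70.1 CPM in WT and 309, 303 and 347 CPM in Het, while the subunit gene Rel fell by 1.36 and Vcam1, also a target of the pathway, by 7.06.

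MHC class I and antigen processing genes had the largest share of called members among the signalling lists described. Of 17 tested MHC class I genes 12 were higher in Het (70.6% against 16.9% of all tested genes) and 1 was lower, with a median log2 difference of 1.01. Psmb8, an immunoproteasome subunit, was at 99.8, 96.2 and 101 CPM in WT and 206, 212 and 214 CPM in Het (log2 1.14 ± 0.09, edgeR adjusted p = 2.16e-05). Nlrc5, the class I transactivator, was at 2.26, 2.19 and 4.33 CPM in WT and 13.9, 19.2 and 17.8 CPM in Het (log2 2.57 ± 0.29, edgeR adjusted p = 1.51e-04). No Het library reached down to the WT range at either gene, and the lines did not overlap at 45.3% of all tested genes. The classical genes H2-K1 and H2-D1 rose by 0.69 and 0.61, as did B2m by 0.69. H2-Q4 (log2 2.45) shares 21.1% of its sampled 50-base stretches with other genes. Interferon-stimulated genes were higher at 12 of 34 (35.3%) and lower at 2 (5.88%, median log2 0.55), beside 16.9% and 11.2% over all tested genes. The guanylate-binding genes Gbp3, from 6.53 to 7.67 CPM to 37.2 to 44.7 CPM, and Gbp2, from 0.67 to 0.87 CPM to 3.11 to 5.2 CPM, rose, and Oas2 (log2 -1.56) and Oas1a (-0.63) fell.

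Cell cycle genes were rarely called, beside 28.1% of all tested genes. In edgeR 0 of 32 tested S phase genes passed the threshold (median log2 -0.03), and 1 had an unadjusted p under 0.05, while DESeq2 and voom also called 0. The replication helicase subunit Mcm6 was at 584 to 620 CPM in WT and 641 to 695 CPM in Het, and with scaling by library total alone it was called higher (log2 0.29, edgeR adjusted p = 0.0381). Of 30 G2/M and mitosis genes 2 were lower, Kif23 (log2 -0.70) and Ccnb1 (-0.40), and the second shares 41.0% of its sampled stretches with other genes. The call of Ccnb1 was lost without WT_EtOH A, WT_EtOH B or Het_EtOH B. The median of that list was -0.12, with 24 members under 0.

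Genes induced by low oxygen, a list drawn up after the values had been seen and so a description, were higher at 17 of 28 (60.7%). They were lower at 2 (7.14%). The shares over all tested genes were 16.9% and 11.2%. The summed level of the list was 4228 to 4510 CPM in WT and 7610, 12023 and 8205 CPM in Het libraries A to C. Under 4OHT it was 4180, 4234 and 8306 CPM in WT and 7039.5 to 9663 CPM in Het, so WT_4OHT C lay in the Het range. In FF ethanol libraries A to C it was 4481, 4999 and 5760 CPM. Het_EtOH B stood highest. P4ha2, a collagen prolyl hydroxylase, was at 0.12, 0.14 and 0.09 CPM in WT and 11.7, 29.8 and 12.3 CPM in Het (log2 7.29 ± 0.53, edgeR adjusted p = 8.48e-06). The glucose transporter Slc2a1 overlapped, at 77.5 to 98.5 CPM in WT and 57.5, 257 and 126 CPM in Het, and did not pass the threshold, but without Het_EtOH A it was called higher (log2 1.14, edgeR adjusted p = 0.014).

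Called genes lay side by side in a few places. Among 11545 windows of 10 neighbouring tested genes, 8 windows had 9 genes called in 1 direction and 0 had 10, and the 8 windows join into 4 regions. On chromosome 17 (34153072 to 34591754), 9 of 11 genes were higher, from Psmb9, Tap1, Psmb8 and Tap2 to the class II genes H2-Ob, H2-Ab1, H2-Aa, H2-Eb1 and H2-Eb2, between H2-DMb1 and Gpsm3, which did not pass the threshold. On chromosome 5 (104525735 to 105832436) 9 of 11 were higher, Gbp8, Gbp9, Gbp4, Gbp6 and Gbp11 among them. Gbp8 was at 0.20 to 0.36 CPM in WT and 2.25 to 6.85 CPM in Het. In the Het 4OHT libraries Gbp8 was at 0.83 to 1.91 CPM and Gbp4 at 0.33 to 0.47 CPM. Neither was called between the lines under 4OHT (log2 1.20 and 0.20, or 2.63 and 1.94 without WT_4OHT C). In the annotation Gbp8, Gbp9 and Gbp4 overlap, so they are not fully separate neighbours. Of the sampled stretches of Gbp8 17.4%, and of those of Gbp4 11.1%, are found in another gene. On chromosome 16 (36071685 to 36784962) 10 of 12 were lower, mostly stefin genes, a family of cathepsin inhibitors. Stfa1 was at 253, 183 and 202 CPM in WT and 3.55, 6.46 and 3.68 CPM in Het, and Stfa3 at 3.12 to 4.99 CPM in WT and 0.04 to 0.12 CPM in Het. Some stefins share sequence, with 27.6% of the sampled stretches of Stfa1 and 31.6% of those of Stfa2l1 found in another gene. The level of a single such member is thus uncertain. For Stfa3 the share was 0%. On chromosome 3 (86224680 to 87824306) 9 of 10 genes were higher, from Lrba to Insrr, and Kirrel between them was lower (log2 -6.03). Here too annotated genes overlap, with Insrr inside Pear1 and Pear1 overlapping Lrrc71.

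**Figure D4:**
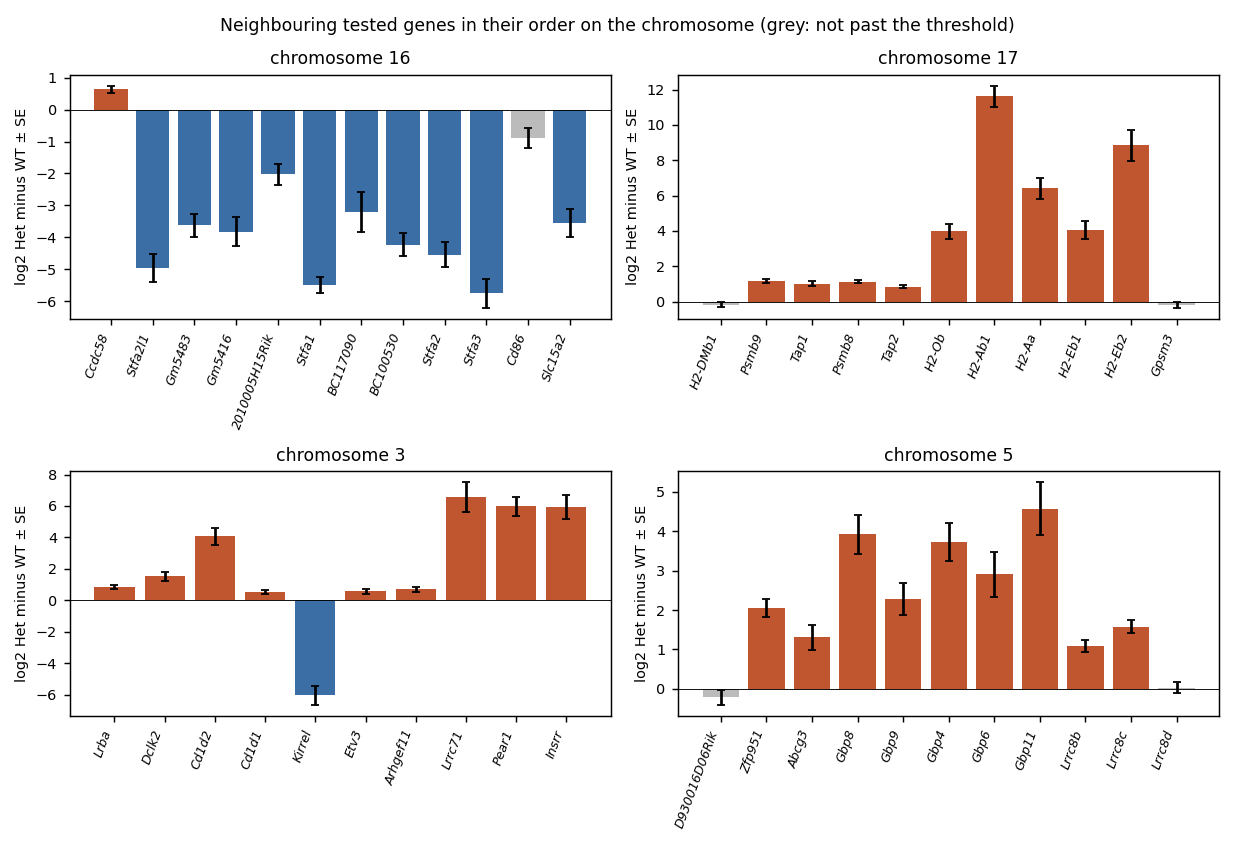
Log2 difference (Het minus WT, ethanol, edgeR) with its SE for the neighbouring tested genes of the 4 regions in which 9 of 10 neighbours were called in 1 direction, in chromosome order and not to distance. The stefin genes on chromosome 16 are lower, and the class II and guanylate-binding genes on chromosomes 17 and 5 are higher. Flanking genes are grey on chromosomes 17 and 5 only. On chromosome 16 Cd86 is grey and the outermost genes Ccdc58 and Slc15a2 are coloured, and on chromosome 3 every gene is coloured.

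Chromosome 12 stood slightly apart. Its 405 tested genes had a median log2 difference of 0.18, with 100 higher and 22 lower, while the medians of the other autosomes and chromosome X lay between -0.05 and 0.04. Taken singly, Het_EtOH A, B and C had chromosome 12 medians of 0.19, 0.09 and 0.11 above the WT mean, and the WT libraries lay between -0.07 and 0.05. On the same scale FF_EtOH B was at 0.11 and the FF 4OHT libraries at 0.06, 0.10 and 0.14, so several FF libraries reached the Het range, while FF_EtOH A and C were at -0.0047 and 0.02. A copy number was not measured. With scaling by library total alone the median of chromosome 12 was 0.27, on a shift of 0.10 for all genes.

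Genes that share sequence with other genes need separate reading. Of 800 tested genes that share at least 20% of their sampled 50-base stretches with another annotated gene, 40.0% were called, 90 higher and 230 lower, against 27.5% of 8022 genes that share none. Gapdh, a glycolytic enzyme gene with many pseudogenes, was at 2300, 2380 and 2933 CPM in WT and 338, 542 and 329 CPM in Het (log2 -2.61 ± 0.21, edgeR adjusted p = 1.59e-05). In the FF ethanol libraries Gapdh was at 2517 to 4526 CPM, and in the Het 4OHT libraries at 393 to 482 CPM. Rpl17, encoding a ribosomal protein, was at 978 to 1062 CPM in WT and 45.0 to 72.9 CPM in Het. The pseudogene Rpl14-ps1 went the opposite way, from at most 0.16 CPM in WT to 231 to 332 CPM in Het. Among the 94 tested pseudogenes 54.3% were called, 28 higher and 23 lower. How reads that match several places were counted is not given in the sources used here, so the levels of such genes are uncertain. Shares were high at other named genes, with 100% of the sampled stretches of Mir682, 77.4% of Rpl14-ps1, 57.6% of Oas1a, 45.3% of Rpl17, 36.4% of Fpr2 and 20.2% of Csf2rb found in another gene.

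The same contrast between the lines was available in other libraries, those under 4OHT, where line and loss of the Het line's floxed allele cannot be told apart. There 619 of 12355 genes passed the threshold (5.01%), 334 higher (2.7%) and 285 lower (2.31%) in Het. The count depended on single libraries, and leaving one out gave 84 (WT_4OHT A), 103 (WT_4OHT B), 1141 (WT_4OHT C, 9.04%), 1260 (Het_4OHT A), 230 (Het_4OHT B) or 139 (Het_4OHT C). The library labelled WT_4OHT C had Eya1 at 54.8 CPM, against 0 counts in WT_4OHT A and B, and Vcam1 at 82.7 CPM, against 363 and 370 CPM. Genes called higher in ethanol had the same sign under 4OHT at 1996 of 2024 (98.6%), with 317 called the same way, and genes called lower did at 1341 of 1345 (99.7%), with 280 called. Without WT_4OHT C the same signs were at 2054 of 2060 and 1374 of 1375, with 684 and 409 called the same way. Over all genes tested without that library 5.67% were called higher and 3.37% lower. The 4OHT libraries are of the same lines, and the Het ones lie in the same column block. A shared sign is thus not a test in separate lines. Ikzf2 again had 0 counts in every WT library, WT_4OHT C included, and was at 9.27, 32.1 and 47.3 CPM in Het under 4OHT. Vcam1 was at 2.08 to 2.19 CPM and Mpo at 64.9 to 115 CPM in the Het 4OHT libraries.

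**Figure D5:**
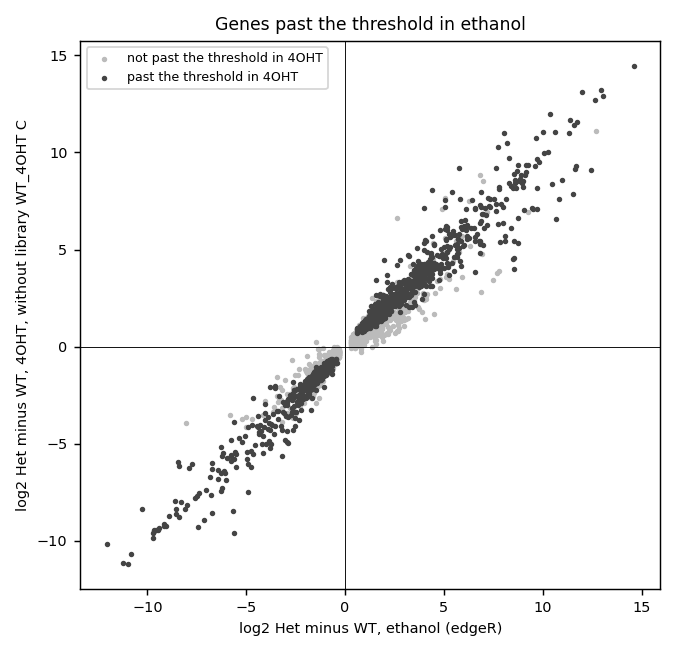
For genes past the threshold in ethanol, the log2 difference Het minus WT in ethanol (horizontal) against that under 4OHT without the library WT_4OHT C (vertical), both from edgeR, in libraries that the 2 comparisons do not share. Points past the threshold under 4OHT are dark, and nearly all points have the same sign on both axes.

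Over all 18 libraries, the genes whose log2 CPM was most like that of Eya1 were Pea15a (Pearson r = 0.997), Taf9b, Chdh, Gspt2 and Ppp1r14c, and those most like Vcam1 were Sdk1 (0.988), Ano4, Camp, Ralgps2 and Anxa11. These are descriptions over libraries that share lines. Taf9b, which encodes a TFIID subunit, had 0 counts in WT, 11.1 to 14.1 CPM in Het and 16.3 and 15.7 CPM in FF_EtOH A and B. Ano4 had a mean of 41.6 CPM in WT and 0.81 CPM in Het.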

How the data were processed

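RNA-seq libraries of the Het and WT lines in ethanol were compared, 3 in each group. The authors deposited raw read counts by gene symbol. The submitters' processing notes name HISAT2 2.0.5, featureCounts 1.5.2 of Subread, CASAVA 1.4, FastQC 0.11.7 and the mm10 build. Strand setting, annotation and the treatment of multiply matching reads are not stated there. Coordinates come from GENCODE M21 (GRCm38), in which 22711 of 24062 symbols matched 1 gene, 47 several and 1304 none.

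Counts were fitted with edgeR 4.0.16 in R 4.3.3 (TMM, filterByExpr with a minimum count of 10, robust quasi-likelihood F test) on the 6 compared libraries only, and p-values are Benjamini-Hochberg adjusted over all 12320 tested genes with a threshold of 0.05. Shown CPM are TMM-scaled over all 18 libraries, values are listed in the order A, B and C, and the SE of a log2 difference derives from the F statistic. Floors of 3 counts over a group and 95% exact counting intervals cover counting error only. No pair among the 15 library pairs was identical, and the smallest chi-square per gene was 9.12. Shared stretches were found by sampling 50-base words every 20 bases of each gene's longest transcript.

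The members, the 30 gene lists and the rule for naming genes were chosen with earlier results of these data known. The rule names Ddx41, Eya1 and Vcam1, the 12 largest rises and falls among called genes without overlap whose higher group averages 10 CPM or more, passing over predicted models, and up to 6 called members of each list, ranked by adjusted p, whose higher group averages 1 CPM or more. Other list members and the genes of regions and copies were named after their values were seen. Lists were described by counts and medians, without a test. The fitting script was tested on simulated data. Alternatives were DESeq2 1.42.0 and its size factors, library size scaling, limma 3.58.1 voom, other filters and thresholds, fits to 18 and 16 libraries, a replicate block, and each library left out in turn.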

Additional observations from a re-analysis of the deposited data

How the results depend on the processing

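Against 3460 genes called in ethanol, leaving out each library in turn gave 2666 (without WT_EtOH B) to 4223 (without WT_EtOH C). DESeq2 size factors, library size scaling, no filter, DESeq2, voom and the fits to 18 and 16 libraries gave 3049 to 3989. The count was 1064 (761 higher, 303 lower) in a test against a 2-fold difference and 2190 (797 lower) at an adjusted p of 0.01, which are stricter by construction. It was 2208 (749 lower) among genes that share no 50-base stretch, an alternative added after seeing the data. A filter of 5 CPM in 3 libraries left 1369 higher. The letters did not pair the libraries (correlations -0.08, -0.003 and -0.13), and a replicate block gave 3059 in ethanol and 138 under 4OHT. Under 4OHT the 619 calls became 1525 with DESeq2, 120 at an adjusted p of 0.01, and 84 to 1260 when 1 library was left out, and the causes were not tested. Of 205 named genes tested, 194 were called and 102 kept their call in every alternative, the stricter ones included. Among genes the report describes, the fit to 18 libraries ended the calls of Acta2, Dach1, Padi4, Erg, Fpr2, H2-D1, Ctsg and Ccr2. Fitting without a count filter ended those of Adm, Fosl1 and Ccr2. Signs reversed at 3 genes that were not called. Rrm1 was at -0.0202 (DESeq2 size factors and DESeq2), -0.0177 (no filter), -0.0461 (18 libraries) and -0.0473 (16 libraries), and from -0.0814 to 0.0466 with a library left out. Eif2s3y was at 0.00676 with library size scaling and from -0.23 to 0.0203 with a library left out, and Rn45s from -1.01 to 0.18. Depth limits genes under about 1 CPM.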
